A study of Mus musculus with 4 samples.

Results

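Chemokines are small secreted proteins that attract cells carrying the matching receptor. The CC ligands are named for a pair of adjacent cysteines and the XC ligand Xcl1 for a missing cysteine. Activated CD8+ T cells and natural killer cells secrete Ccl3, Ccl4 and Ccl5, which attract T cells and monocytes, and Xcl1, which draws in cross-presenting dendritic cells through Xcr1. Monocytes, macrophages, neutrophils, dendritic cells and stromal cells are the textbook sources of Ccl2, Ccl6, Ccl7, Ccl8, Ccl9 and Ccl22. The division is not strict, since Ccl3 and Ccl4 are also made by activated myeloid cells.

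The family was described here in CD8+ T cells enriched from percutaneous tumour grafts of wild type, male C57BL/6 mice. One group received an antibody against SIGLEC15 and the other received IgG, both by intraperitoneal injection over 2 weeks, with graft collection on day 19. There were 6 mice per treatment, but 3 cell pellets were mixed into each library, so that there were 2 anti-SIGLEC15 libraries and 2 IgG libraries, and any spread below is between pools and not between mice. The age of the mice and the grafted line are not given in the labels. The members were the 10 genes whose symbol in GENCODE M21 was Ccl2, Ccl3, Ccl4, Ccl5, Ccl6, Ccl7, Ccl8, Ccl9, Ccl22 or Xcl1, out of 36464 gene IDs in the files, and all 10 were found. They were set apart as 4 lymphocyte chemokines (Ccl3, Ccl4, Ccl5 and Xcl1) and 6 myeloid chemokines.

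Depth was similar, with 14854802 to 16026197 counted reads per library, of which mitochondrially encoded genes took 8.91% to 18.4%. A count of 3 reads corresponded to between 0.0615 and 0.395 RPKM (reads scaled to exon length and to the counted reads of the library), depending on the gene and library. CD8 T cell markers were abundant: Cd8a measured 290 and 315 RPKM in anti-SIGLEC15 replicates 1 and 2, against 115 and 351 RPKM in IgG replicates 1 and 2. IgG replicate 1 stood apart. All 21 T cell identity genes found and all 11 CD8 lineage genes were lowest there, and 9 of 15 hepatocyte genes and 12 of 16 neutrophil genes were highest there, where 43.4% of all genes tested were lowest and 34.0% highest. The level of the T cell identity list (the geometric mean of RPKM + 1, less 1) was 74.2 and 78.5 RPKM in anti-SIGLEC15 replicates 1 and 2, against 27.1 and 83.4 RPKM in IgG replicates 1 and 2. The fold changes of the members and the counts over gene lists are therefore also given without IgG replicate 1. In pooled cells of this kind, fewer cells of a type and less RNA per cell cannot be told apart.

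The 10 genes spanned a wide range of levels. Averaged over the 4 libraries, Ccl5 led with 1853 RPKM, and Ccl3 with 685 RPKM, Ccl4 with 493 RPKM and Xcl1 with 126 RPKM followed. Below them came Ccl6 with 18.3 RPKM, Ccl9 with 6.60 RPKM, Ccl2 with 1.72 RPKM and Ccl22 with 1.46 RPKM. Ccl8 and Ccl7 averaged 0.506 and 0.307 RPKM. The ranges of neighbours in this order overlapped, except that every library value of Ccl4 lay above every value of Xcl1, every value of Xcl1 above every value of Ccl6, and every value of Ccl9 above every value of Ccl2. Within libraries, Ccl5 exceeded Ccl3 in 3 of 4, Ccl3 exceeded Ccl4 in 3 of 4 and Ccl6 exceeded Ccl9 in 3 of 4. The 4 lymphocyte chemokines made up 99.5% and 99.0% of the summed RPKM of the 10 genes in anti-SIGLEC15 replicates 1 and 2, against 96.5% and 99.6% in IgG replicates 1 and 2.

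**Figure D1:**
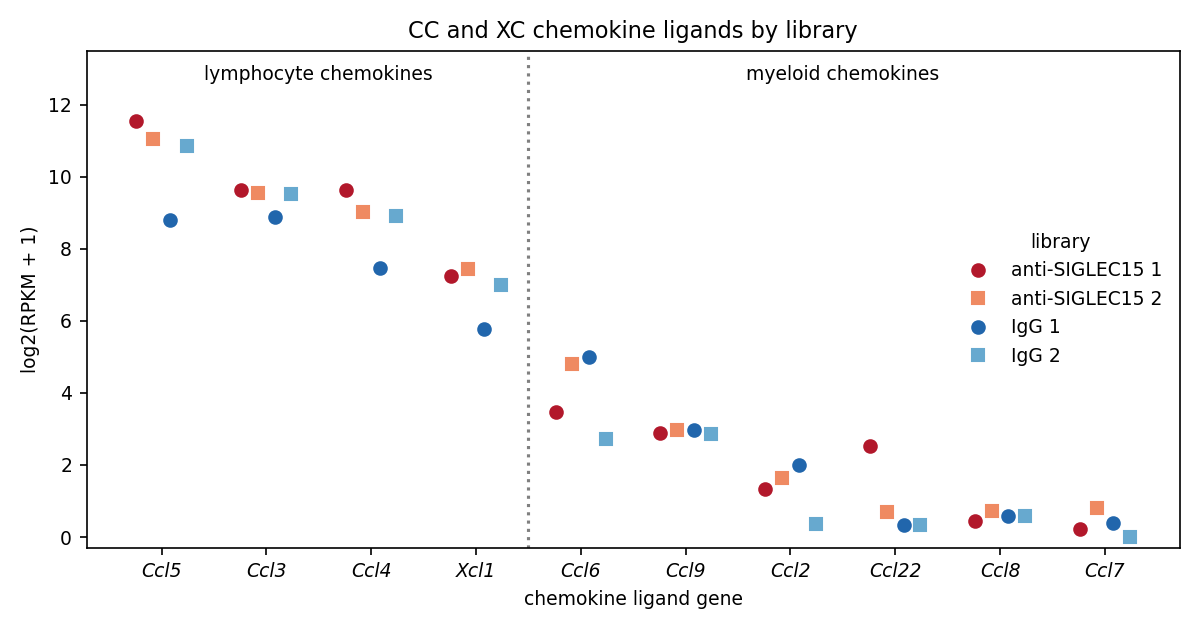
Level of each of the 10 chemokine genes, as log2(RPKM + 1) on the vertical axis, with 1 point per library (circles for replicate 1, squares for replicate 2, red and orange for anti-SIGLEC15, dark and light blue for IgG). IgG replicate 1 is the lowest library for all 4 lymphocyte chemokines, while Ccl6 and Ccl2 are lowest in IgG replicate 2 and Ccl22 stands out in anti-SIGLEC15 replicate 1.

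Of the members, 7 passed the filter of at least 1 RPKM in at least 2 libraries and entered the test over all genes, and Ccl7, Ccl8 and Ccl22 did not. For the 4 lymphocyte chemokines the lower anti-SIGLEC15 library exceeded the higher IgG library, as it did for 12.1% of the 12484 genes tested, and the reverse held for 0 of the 7, compared with 6.02% of the genes tested. Set against IgG replicate 2 alone, all 7 were higher in each anti-SIGLEC15 library, as were 26.0% of the genes tested. For Ccl9 and Ccl3 the margins were narrow, with 6.38 and 743 RPKM in the lower anti-SIGLEC15 library, against 6.33 and 736 RPKM. The same narrow margin of Ccl3 placed it among the 4 genes that separated the treatments. Set against IgG replicate 1 alone, the 4 lymphocyte genes were higher in each, as were 45.4%, and Ccl2, Ccl6 and Ccl9 were lower in each, as were 36.2%. No member passed the test, which was limma on log2(RPKM + 1) with Benjamini-Hochberg adjustment at 0.05: it called 0 of 12484 genes (0.0%), with 146 genes (1.17%) at an unadjusted p under 0.05, none of them a member. limma-voom on recovered reads also called 0 genes, with 90 at an unadjusted p under 0.05. For a single gene, 2 libraries against 2 allow no two-sided exact permutation p below 0.333. The median log2 fold change of the 7 tested members was 0.37, beside 0.02 over all genes tested.

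Ccl5 (ENSMUSG00000035042, chromosome 11, 83525778 to 83530518 on the minus strand of GRCm38) attracts T cells and monocytes. It measured 3003 and 2111 RPKM in anti-SIGLEC15 replicates 1 and 2, against 442 and 1855 RPKM in IgG replicates 1 and 2. Among protein-coding genes, mitochondrial ones included, this placed it 11th and 14th in the anti-SIGLEC15 libraries, and 115th and 20th in the IgG libraries. Its values rested on 45254 and 30111 reads with anti-SIGLEC15, against 6798 and 27619 reads with IgG. IgG replicate 1 was low by a large factor, and the 3 other libraries lay within a narrower band. The means were 2557 ± 631 RPKM with anti-SIGLEC15 and 1148 ± 999 RPKM with IgG (SD, n = 2 each), and the log2 fold change was 1.47 (SE 0.70, limma adjusted p = 1.00). Without IgG replicate 1 the log2 fold change was 0.44, and without IgG replicate 2 it was 2.51, so its size rested on a single IgG pool. A lone IgG library takes its spread from the anti-SIGLEC15 pair, so no p is given for such fits.

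Ccl3 and Ccl4 are close relatives, and they lie 13.2 kb apart on chromosome 11. Ccl3 (ENSMUSG00000000982, 83647844 to 83649355, minus strand) measured 788 and 743 RPKM in anti-SIGLEC15 replicates 1 and 2, against 472 and 736 RPKM in IgG replicates 1 and 2. Both anti-SIGLEC15 values and IgG replicate 2 lay close together, and IgG replicate 1 lay below them. Its log2 fold change was 0.37 (SE 0.28, adjusted p = 1.00), but it was 0.05 when IgG replicate 1 was left out and 0.70 when IgG replicate 2 was. Ccl4 (ENSMUSG00000018930, 83662584 to 83664683, plus strand) measured 794 and 519 RPKM in anti-SIGLEC15 replicates 1 and 2, against 178 and 482 RPKM in IgG replicates 1 and 2. Its log2 fold change was 1.13 (SE 0.54, adjusted p = 1.00), and it came to 0.41 if IgG replicate 1 was dropped and to 1.85 if IgG replicate 2 was. The pair did not keep a fixed ratio. Ccl4 stood at 1.01 and 0.698 times the RPKM of Ccl3 in the anti-SIGLEC15 libraries, against 0.376 and 0.654 times in the IgG libraries.

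Xcl1 (ENSMUSG00000026573, chromosome 1, 164931644 to 164935527, minus strand), the XC member, measured 152 and 173 RPKM in anti-SIGLEC15 replicates 1 and 2, against 53.8 and 127 RPKM in IgG replicates 1 and 2. Of the 4 lymphocyte genes it alone was highest in anti-SIGLEC15 replicate 2. Its log2 fold change was 0.96 (SE 0.46, adjusted p = 1.00), and 0.34 without IgG replicate 1 or 1.57 without IgG replicate 2. Its exons share 98 bases with Gm20743 on the opposite strand, which measured at most 1.60 RPKM. Among the alternatives that kept every library, none of the 4 lymphocyte genes was called.

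**Figure D2:**
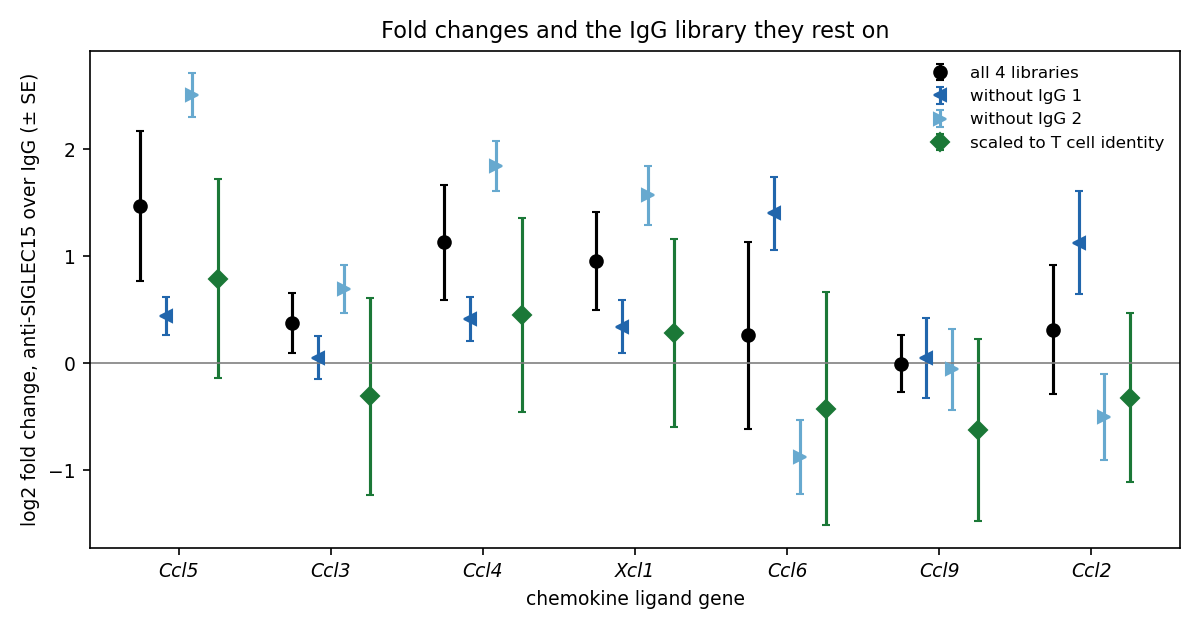
Log2 fold change of anti-SIGLEC15 over IgG (vertical axis, with the standard error from limma as bars) for the 7 tested members, in the fit of all 4 libraries, without either IgG library, and after scaling to the T cell identity genes. For Ccl5 the value is 1.47 with all libraries, 0.44 if IgG replicate 1 is left out and 2.51 if IgG replicate 2 is, while the values of Ccl6 and Ccl2 lie on both sides of 0.

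The low level in IgG replicate 1 went with the low T cell identity level of that library, so the lymphocyte chemokines were also expressed relative to that level. Ccl5 stood at 40.5 and 26.9 times the T cell identity level in anti-SIGLEC15 replicates 1 and 2, against 16.3 and 22.2 times in IgG replicates 1 and 2. Ccl4 stood at 10.7 and 6.61 times, against 6.56 and 5.77 times. Xcl1 stood at 2.05 and 2.20 times, against 1.99 and 1.53 times. These 3 genes kept both anti-SIGLEC15 libraries above both IgG libraries, Ccl4 and Xcl1 by narrow margins (6.61 beside 6.56 and 2.05 beside 1.99). Of all genes tested, 3.19% did so on this scale and 10.1% lay lower, beside 12.1% and 6.02% before scaling. The scaling raises every gene in IgG replicate 1 relative to the other libraries, so the shares moved with it. Ccl3 differed: it stood at 10.6 and 9.46 times the T cell level with anti-SIGLEC15, against 17.4 and 8.83 times with IgG, so that it was highest in IgG replicate 1. No member passed limma on this scale either. The log2 fold changes were 0.79 for Ccl5 (SE 0.93), 0.45 for Ccl4 (SE 0.91), 0.28 for Xcl1 (SE 0.88) and -0.31 for Ccl3 (SE 0.92), set against a median of -0.56 over all genes that the scaling itself produced, and their adjusted p lay between 0.862 and 0.885.

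**Figure D3:**
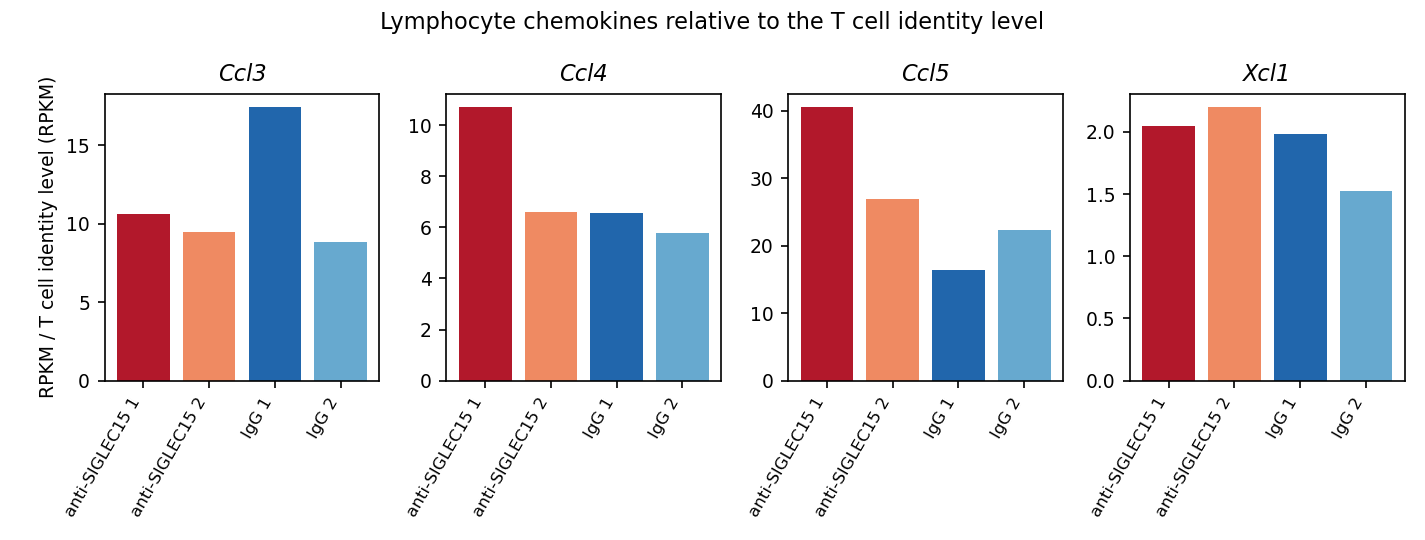
RPKM of each lymphocyte chemokine divided by the level of the T cell identity list (vertical axis), with 1 bar per library. Ccl5 is highest in both anti-SIGLEC15 libraries (40.5 and 26.9 against 16.3 and 22.2 in the IgG libraries), whereas Ccl3 is highest in IgG replicate 1 (17.4).

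T cell receptor signalling induces Ccl3, Ccl4 and Xcl1, and a list of other genes induced that way was read beside them. Of its 18 tested genes, 5 had both anti-SIGLEC15 libraries on top and 0 had both at the bottom, where 12.1% and 6.02% of all genes tested did so, with a median log2 fold change of 0.57, and 0 were called by limma. Without IgG replicate 1, 7 were higher and 6 lower in each anti-SIGLEC15 library than in IgG replicate 2, and the median was 0.09. IgG replicate 1 was lowest for 14 of its 20 genes, compared with 43.4% of all genes tested. Ifng, which encodes interferon gamma, measured 174 and 180 RPKM in the anti-SIGLEC15 libraries, against 59.4 and 170.5 RPKM in the IgG libraries. For the nuclear receptor genes and Myc the treatments overlapped. Nr4a1 measured 221 and 156 RPKM, against 136 and 191 RPKM, and Nr4a2 118 and 144 RPKM, against 41.9 and 185 RPKM, in the same libraries. Myc measured 161 and 95.7 RPKM, against 113 and 106 RPKM.

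Many markers on the lists for other lymphocytes were also lowest in IgG replicate 1. Natural killer cells make the same 4 chemokines. Of 12 listed markers of these cells, 8 were lowest or tied for lowest in that library, beside 43.4% of all genes tested. Among the 8, Klra8 was at 0 in both IgG libraries and Klrb1c at 0 in IgG replicate 1. Fcer1g and Tyrobp were instead highest in IgG replicate 1. The summed RPKM of the list was 487 and 186 with anti-SIGLEC15, against 144 and 167 with IgG. Without the granzyme gene Gzma it was 104 and 142, against 110 and 98.0, and no longer lowest in IgG replicate 1. Of that 110, Tyrobp gave 58.2 RPKM and Fcer1g 30.1 RPKM, and both genes had the library order of Ccl6. Klre1 measured 31.3 and 37.6 RPKM with anti-SIGLEC15, against 9.25 and 35.2 RPKM with IgG. The list shares Eomes with the CD8 lineage list, and how much of its values came from CD8 T cells was not tested. The natural killer cell gene Ncr1 was at most 0.372 RPKM and at 0 in IgG replicate 2. Klrb1c, Klra4 and Klra8 were at most 0.732, 0.466 and 0.487 RPKM. All 10 B cell and plasma cell markers were lowest in IgG replicate 1 too, with a summed RPKM of 115 and 137, against 25.6 and 70.2, nearly all from Igkc and Ighm, while the B cell gene Ms4a1 was at most 0.0515 RPKM and at 0 in IgG replicate 1. The part of these cells in the chemokine values was not tested.

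Ccl6 and Ccl2 followed other libraries than the lymphocyte chemokines, and the myeloid chemokines also differed among themselves. Ccl22 had its highest value in anti-SIGLEC15 replicate 1, as Ccl3, Ccl4 and Ccl5 did. Ccl6 (ENSMUSG00000018927, chromosome 11, 83587882 to 83593087, minus strand), a rodent ligand of Ccr1 made by macrophages and neutrophils, measured 10.01 and 26.7 RPKM in anti-SIGLEC15 replicates 1 and 2, against 31.0 and 5.60 RPKM in IgG replicates 1 and 2. The IgG libraries held both its highest and its lowest value, with the anti-SIGLEC15 libraries between them. The means were 18.3 ± 11.8 RPKM with anti-SIGLEC15 and 18.3 ± 17.9 RPKM with IgG (SD, n = 2 each), with a log2 fold change of 0.26 (SE 0.87, adjusted p = 1.00). Without IgG replicate 1 the log2 fold change was 1.40, and without IgG replicate 2 it was -0.87. Hence neither direction held over both IgG pools.

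Ccl9 (ENSMUSG00000019122, chromosome 11, 83572919 to 83578636, minus strand), another ligand of Ccr1 and the neighbour of Ccl6 at a distance of 9.25 kb, hardly varied. It measured 6.38 and 6.79 RPKM in anti-SIGLEC15 replicates 1 and 2, against 6.89 and 6.33 RPKM in IgG replicates 1 and 2. The widest exact 95% Poisson interval of these values, which covers counting error only, ran from 6.05 to 7.59 RPKM with anti-SIGLEC15 and from 6.17 to 7.66 RPKM with IgG, so the 4 libraries did not differ beyond counting error. The highest library exceeded the lowest by a factor of 1.09, and 0.865% of all genes tested had a spread as small. Its log2 fold change was -0.0040 (SE 0.27, adjusted p = 1.00), and 0.049 without IgG replicate 1. Ccl6 stood at 1.57 and 3.93 times the RPKM of Ccl9 in the anti-SIGLEC15 libraries, against 4.50 and 0.885 times in the IgG libraries. The longest run of identical bases shared by their transcripts was 25, more than in any other of the 45 pairs of members.

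The upstream sequences of Ccl6 and Ccl9 are shown because these neighbours differed so plainly in spread, and those of Ccl3 and Xcl1 because they stand for the abundant lymphocyte genes. RefSeq's promoter table (GRCm38.p6) held 6 of the 10 members, without Ccl2, Ccl4, Ccl5 and Ccl7. Each line gives the 200 bases before the RefSeq start, 5′ to 3′ on the strand of the gene. Capitals mark matches on either strand to TATAAA, to the AP-1 motif TGANTCA, to the NFAT core GGAAA and to the kappaB motif.
Ccl6: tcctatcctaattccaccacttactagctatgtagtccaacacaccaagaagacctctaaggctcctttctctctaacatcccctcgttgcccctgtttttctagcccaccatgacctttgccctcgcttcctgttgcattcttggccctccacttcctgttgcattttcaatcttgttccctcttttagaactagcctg
Ccl9: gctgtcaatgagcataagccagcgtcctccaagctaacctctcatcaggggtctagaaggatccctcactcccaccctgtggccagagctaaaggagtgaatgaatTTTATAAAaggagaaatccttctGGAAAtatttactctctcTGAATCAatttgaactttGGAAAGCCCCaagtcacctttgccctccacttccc
Ccl3: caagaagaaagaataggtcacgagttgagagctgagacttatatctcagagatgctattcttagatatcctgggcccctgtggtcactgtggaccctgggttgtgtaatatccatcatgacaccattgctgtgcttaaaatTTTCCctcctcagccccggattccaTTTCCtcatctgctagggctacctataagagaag
Xcl1: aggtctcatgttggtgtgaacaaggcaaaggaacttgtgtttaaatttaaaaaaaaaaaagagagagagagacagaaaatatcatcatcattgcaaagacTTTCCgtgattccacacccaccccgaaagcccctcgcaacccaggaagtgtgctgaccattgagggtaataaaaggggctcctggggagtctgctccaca
These windows are chr11:83593088-83593287, chr11:83578637-83578836, chr11:83649379-83649578 and chr1:164935523-164935722, all on the minus strand. The Ccl9 window held overlapping TATAAA matches on both strands, 1 AP-1 match, 2 NFAT core matches and 1 kappaB match, and that kappaB match contains 1 of the NFAT cores. The Ccl6 window held no match to any of the motifs. The Ccl3 window held 2 NFAT core matches and the Xcl1 window 1, with no match to the other motifs. Among all 32851 RefSeq windows of this length, 9.96% held TATAAA, 5.48% the AP-1 motif, 47.6% the NFAT core and 3.18% the kappaB motif. A match describes these letters only and shows no binding.

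Ccl2 (ENSMUSG00000035385, chromosome 11, 82035571 to 82037453, plus strand), the main monocyte attractant through Ccr2, was scarce. It measured 1.51 and 2.13 RPKM in anti-SIGLEC15 replicates 1 and 2, against 2.96 and 0.283 RPKM in IgG replicates 1 and 2, from 27 and 36 reads against 54 and 5 reads. The IgG values enclosed the anti-SIGLEC15 values, as for Ccl6. Its log2 fold change was 0.31 (SE 0.60, adjusted p = 1.00), and leaving out IgG replicate 1 gave 1.13 and leaving out IgG replicate 2 gave -0.50. Its relatives were near the limit of detection. Ccl7 (ENSMUSG00000035373, chromosome 11, 82045712 to 82047525, plus strand), also a Ccr2 ligand, had 2 and 9 reads with anti-SIGLEC15, against 4 and 0 reads with IgG. A count of 3 reads would be 0.241 RPKM in the library with 0. Ccl8 (ENSMUSG00000009185, chromosome 11, 82115185 to 82116799, plus strand), which signals through Ccr8 in mice, had 3 and 5 reads, against 4 reads in each IgG library. The treatments overlapped for both genes. The exact 95% Poisson interval of Ccl7 ran from 0.346 to 1.44 RPKM in anti-SIGLEC15 replicate 2, above that of IgG replicate 2, which ended at 0.297 RPKM, while those of Ccl8 overlapped in all 4 libraries.

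Ccl6, Ccl2 and Ccl9 shared 1 order of libraries, with IgG replicate 1 highest, then anti-SIGLEC15 replicate 2, anti-SIGLEC15 replicate 1 and IgG replicate 2, although for Ccl9 the steps lay within counting error. Of all genes tested, 2.08% had this order. So did Ccr1, the receptor of Ccl6 and Ccl9, with 6.39 and 14.7 RPKM in the anti-SIGLEC15 libraries, against 16.5 and 2.91 RPKM in the IgG libraries. Neutrophil markers had the same order in 10 of 16 genes. S100a9, a calcium-binding protein gene of neutrophils, measured 149 and 245 RPKM with anti-SIGLEC15, against 579 and 46.7 RPKM with IgG, S100a8 43.4 and 71.0 RPKM, against 157 and 11.4 RPKM, and Retnlg 9.78 and 22.8 RPKM, against 62.3 and 5.001 RPKM. Il1r2, the remaining of the 4 most abundant neutrophil markers, did not, with 28.7 and 57.7 RPKM against 51.7 and 65.1 RPKM. The summed RPKM of the neutrophil list was 258 and 450 with anti-SIGLEC15, against 950 and 139 with IgG. Elane, Mpo and Camp were at 0 in at least 1 library each and the other genes of the list in none. Among other granule genes, Ngp ran from 0.633 to 7.20 RPKM, Mmp9 from 0.747 to 5.94 RPKM and Ltf from 0.976 to 1.31 RPKM.

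The macrophage and monocyte list did not show that order as a whole, with 2 of its 20 genes (Cd14 and Lyz2) in it. Its summed RPKM was 837 and 500 with anti-SIGLEC15, against 1702 and 461 with IgG, of which Apoe, which liver cells also express, made up 65.2% and 47.2% with anti-SIGLEC15, against 89.4% and 52.5% with IgG. Ly6c2, which CD8 T cells express too, measured 194 and 142 RPKM, against 52.9 and 135 RPKM. Cd14 measured 22.0 and 39.3 RPKM, against 65.0 and 8.90 RPKM, and Ctss 38.7 RPKM in each anti-SIGLEC15 library, against 16.2 and 40.1 RPKM. The macrophage-defining genes Adgre1, Mrc1, Cd163, Trem2, Fcgr1, Ms4a7 and Csf1r, 7 of the 20, stayed under 1 RPKM in all 4 libraries, and Cd163 and Trem2 were at 0 in all but IgG replicate 2. Cd68, by contrast, ran from 24.5 to 31.0 RPKM. Most basophil and mast cell markers were scarce too, with 11 of 12 under 1 RPKM in every library and Ms4a2 and Fcer1a at 0 throughout. The exception was the basophil gene Mcpt8, with 2.11 and 1.08 RPKM in the anti-SIGLEC15 libraries, against 2.19 and 4.005 RPKM in the IgG libraries. The part of these cell types in the values of Ccl6 and Ccl2 was not tested.

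Ccl22 (ENSMUSG00000031779, chromosome 8, 94745590 to 94751699, plus strand), a Ccr4 ligand of dendritic cells and macrophages that attracts regulatory T cells, was high in 1 library. It measured 4.71 RPKM in anti-SIGLEC15 replicate 1 (exact 95% Poisson interval 4.03 to 5.47, from 172 reads) and 0.608 RPKM in anti-SIGLEC15 replicate 2 (0.376 to 0.929, 21 reads), against 0.268 RPKM (0.129 to 0.494, 10 reads) and 0.250 RPKM (0.114 to 0.474, 9 reads) in IgG replicates 1 and 2. The groups did not overlap, but the interval of anti-SIGLEC15 replicate 2 overlapped both IgG intervals. With no filter its log2 fold change was 1.27 (SE 0.66, limma adjusted p = 0.994), and limma-voom on recovered reads gave 2.67 (SE 1.21, adjusted p = 1.00). The value without IgG replicate 1 was 1.28, with no test.

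Ccl17, the other Ccr4 ligand and the neighbour of Ccl22 at 58.8 kb, was picked after its values were seen. It showed the same single high library, with 2.48 and 0.524 RPKM in the anti-SIGLEC15 libraries, against 0.121 and 0.502 RPKM in the IgG libraries. Ccr4 itself stayed at or below 0.0824 RPKM. Dendritic cell markers were highest in anti-SIGLEC15 replicate 1 in 8 of 15 genes, several of them near 0, as were 32.1% of all genes tested. Of the 4 most abundant, Itgax was among them, with 12.2 and 4.05 RPKM, against 1.55 and 3.14 RPKM. Irf8 (29.2 and 36.2 RPKM, against 28.4 and 38.0 RPKM), Ccr7 (29.1 and 49.5 RPKM, against 27.4 and 56.5 RPKM) and Ffar2 (3.15 and 0.893 RPKM, against 6.89 and 0.901 RPKM) were not. None of these 4 genes, Itgax included, is limited to dendritic cells. Fscn1, a gene of mature dendritic cells and likewise a choice made on its values, had 4.78 and 1.68 RPKM, against 0.932 and 2.12 RPKM. The summed RPKM of the list was 84.5 and 97.5 with anti-SIGLEC15, against 68.0 and 106 with IgG, and Cd209a, Clec9a and Siglech were at most 0.213 RPKM and at 0 in at least 1 library each. The other genes of the list were above 0 in every library, among them Xcr1 from 0.673 to 2.33 RPKM, Batf3 from 0.391 to 1.56 RPKM and Zbtb46 from 0.337 to 1.08 RPKM. Their part in the Ccl22 value was not tested.

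**Figure D4:**
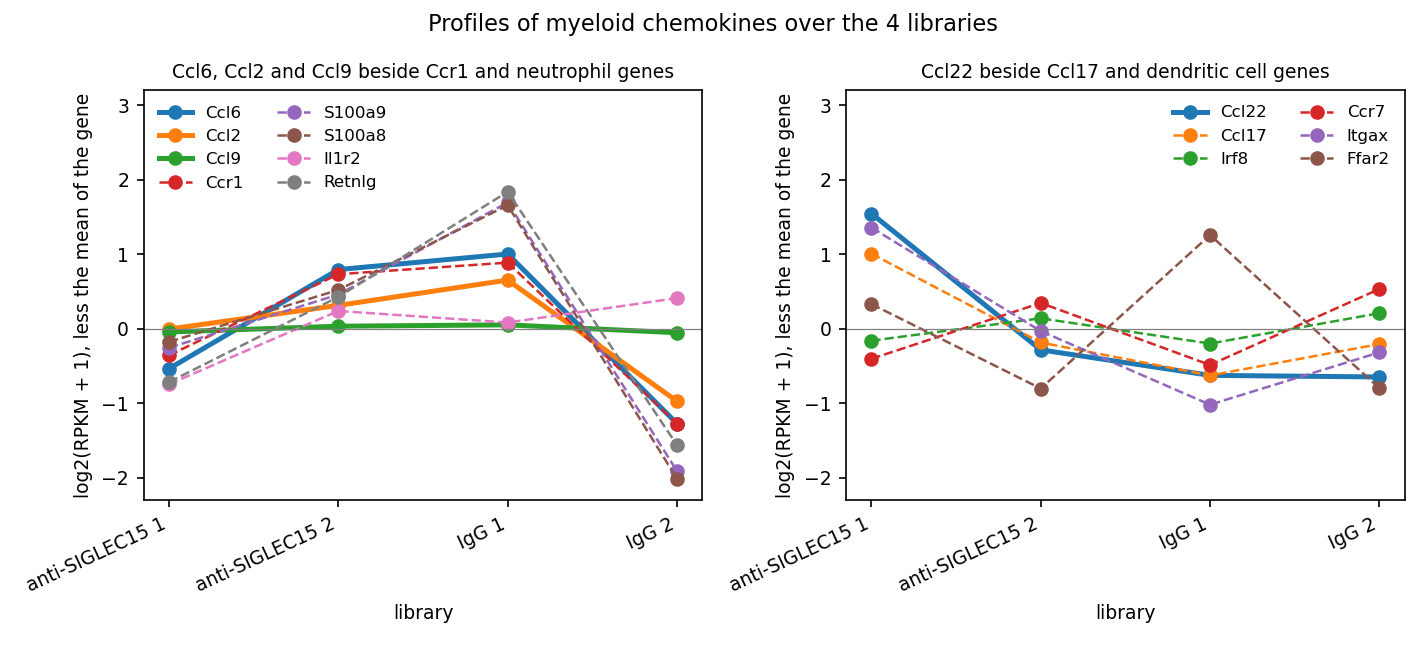
Log2(RPKM + 1) of each gene less its own mean over the 4 libraries (vertical axis), with a line for each gene (solid for members, dashed for other genes). On the left, Ccl6, Ccl2, Ccr1, S100a9, S100a8 and Retnlg are highest in IgG replicate 1 and lowest in IgG replicate 2. Il1r2 is instead highest in IgG replicate 2, and Ccl9 stays flat. On the right, Ccl22, Ccl17 and Itgax peak in anti-SIGLEC15 replicate 1, while Irf8, Ccr7 and Ffar2 do not.

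The contrast between the classes was summarised as the mean log2(RPKM + 1) of the 4 lymphocyte genes less that of the 6 myeloid genes. It was 7.71 and 7.32 in anti-SIGLEC15 replicates 1 and 2, against 5.85 and 7.93 in IgG replicates 1 and 2. The means were 7.52 ± 0.27 with anti-SIGLEC15 and 6.89 ± 1.47 with IgG (SD, n = 2 each), a difference of 0.62 that lay within the spread of the IgG pair. Without IgG replicate 1 the difference was -0.42, so its direction rested on that library. The summed RPKM of the lymphocyte class was 4737 and 3545 with anti-SIGLEC15, against 1145 and 3200 with IgG, and that of the myeloid class 23.1 and 37.6 with anti-SIGLEC15, against 41.9 and 13.0 with IgG. IgG replicate 1 thus held the lowest lymphocyte sum and the highest myeloid sum, and IgG replicate 2 the lowest myeloid sum. Within the myeloid sum, Ccl6 made up 43.2% and 70.9% with anti-SIGLEC15, against 73.9% and 43.2% with IgG.

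Of the 10 genes, 8 lie in the chemokine cluster of chromosome 11, and their levels were split along it. The group around Ccl2 holds Ccl2, Ccl7, Ccl11, Ccl12, Ccl8 and Ccl1. It runs from 82035571 to 82305690, and the lower coordinates of Ccl2 and Ccl1 lie 141 kb apart. The members Ccl2, Ccl7 and Ccl8 were all under 3 RPKM there. Ccl1, which is not a member, ran from 6.72 to 19.7 RPKM, a range that overlapped those of Ccl9 and Ccl6. The group 1220 kb beyond the upper coordinate of Ccl1 holds Ccl5, Ccl9, Ccl6, Ccl3 and Ccl4. There the 3 most abundant members stood at the ends, with the 2 scarcer genes Ccl9 and Ccl6 between them.

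**Figure D5:**
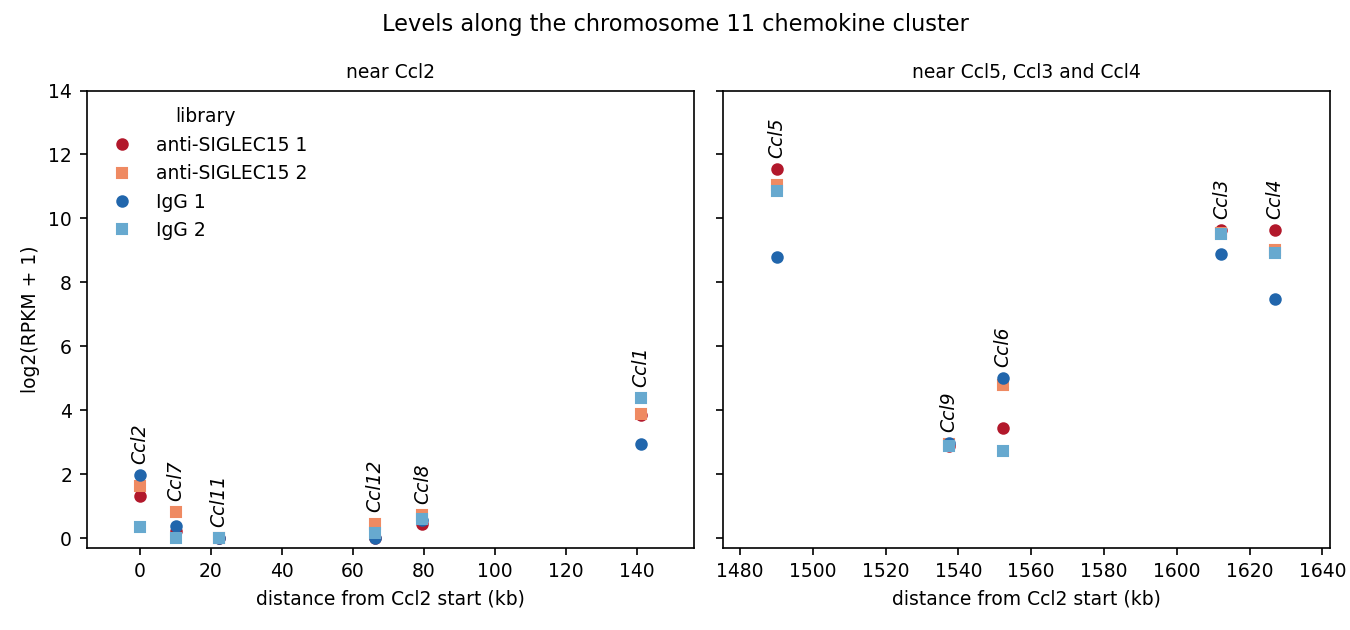
Log2(RPKM + 1) by library (vertical axis) of the chemokine genes on chromosome 11 against their distance in kb from the start of Ccl2 (horizontal axis), in 2 panels on either side of a long interval. Ccl5, Ccl3 and Ccl4 stand far above Ccl9 and Ccl6, which lie between them.

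Other ligands of these classes were scarce. Of 14 further CC, XC and CX3C ligand genes found in the files, 3 were at 0 in every library and 9 under 1 RPKM in every library, those 3 included. Of the 4 tested, 0 separated the treatments, and their median log2 fold change was 0.11, or 0.29 without IgG replicate 1. Ccl1, a T cell ligand of Ccr8, was the most abundant, with 13.4 and 13.6 RPKM in the anti-SIGLEC15 libraries, against 6.72 and 19.7 RPKM in the IgG libraries. Unlike the 4 lymphocyte members it was highest in IgG replicate 2. The membrane-bound ligand gene Cx3cl1 measured 5.41 and 3.19 RPKM, against 13.6 and 1.43 RPKM, Ccl27a 2.14 and 2.21 RPKM, against 2.44 and 1.87 RPKM, and the Ccr3 ligand gene Ccl24 0.984 and 2.50 RPKM, against 1.06 and 0.946 RPKM.

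Receptor genes were measured in the same libraries. Of 17 receptor genes, 8 were tested, of which 2 had both anti-SIGLEC15 libraries on top and 0 had both at the bottom, where 12.1% and 6.02% of all genes tested did so, with a median log2 fold change of 0.33 and 0 called by limma. Without IgG replicate 1, 4 were higher and 3 lower in each anti-SIGLEC15 library, and the median was 0.13. Among them was the Ccl2 receptor gene Ccr2, with 9.38 and 10.1 RPKM in the anti-SIGLEC15 libraries, against 1.88 and 5.41 RPKM in the IgG libraries. Ccr8, the receptor of Ccl1 and Ccl8, measured 9.54 and 10.6 RPKM, against 7.38 and 21.7 RPKM, in the order of Ccl1. Xcr1, the Xcl1 receptor, measured 1.29 and 2.07 RPKM, against 0.672 and 2.33 RPKM. Cx3cr1 measured 4.60 and 7.37 RPKM, against 1.69 and 5.48 RPKM, and the atypical receptor gene Ccrl2 35.3 and 54.3 RPKM, against 45.2 and 28.2 RPKM.

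Among the transcription factors and cytokines that induce chemokine genes, 5 of 18 tested had both anti-SIGLEC15 libraries on top and 0 had both at the bottom, beside 12.1% and 6.02% of all genes tested, with a median log2 fold change of 0.37 and 0 called. Without IgG replicate 1, 12 were higher and 2 lower in each anti-SIGLEC15 library, and the median was 0.32. The list shares Ifng and Tnf with the genes induced by the T cell receptor. Its most abundant genes were highest in IgG replicate 1 apart from Ifng. Nfkbia, the inhibitor gene that NF-kappaB itself induces, measured 778 and 771 RPKM in the anti-SIGLEC15 libraries, against 1107 and 599 RPKM in the IgG libraries. The AP-1 genes Fos and Jun measured 384 and 158 RPKM, against 825 and 156 RPKM, and 240 and 188 RPKM, against 350 and 128 RPKM. Il1b, picked after its values were seen, had the library order of Ccl6, with 34.4 and 84.7 RPKM, against 146 and 13.8 RPKM.

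The genes most like the mean profile of each class over the 4 libraries were found by Euclidean distance between centred log2(RPKM + 1) values, among 6796 genes with a mean of at least 5 RPKM. For the lymphocyte class these were Fam78a (distance 0.10), Cldnd2 (0.11) and Pank4 (0.12). Its own members lay farther from that mean, with Ccl4 at 0.30, Xcl1 at 0.32, Ccl5 at 0.73 and Ccl3 at 0.80. The named genes were picked as the closest of all 6796, so this comparison does not measure how alike the members are. For the myeloid class they were Gm10180 (0.08), Resf1 (0.17) and Gm37691 (0.20), while Ccl6 lay at 1.39 and Ccl22 at 1.73 from their own class mean. Between members the smallest distance among the 4 lymphocyte genes was that of Ccl4 and Ccl5, at 0.57, and the largest over all 45 pairs was that of Ccl5 and Ccl6, at 3.55. With 4 libraries such likeness is a description only.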

How the data were processed

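Poly(A) RNA from enriched CD8+ T cells was read on the DNBSEQ-G50 platform according to the protocols (per the labels). The authors deposited 1 column of values per library for 36464 Ensembl IDs without naming the unit. They are read as RPKM computed by the authors, since each value times the GENCODE M21 exon length was a whole multiple of 1 step per library (tolerance 0.02, 98.9% to 99.0% of genes with under 1000 reads). The sources do not say if fragments or reads were counted. The submitters' processing notes name GRCm38 and mm10, with aligner, counter and strand setting not given in the sources used here. Symbols matched 36386 IDs.

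Libraries were grouped by title, with 2 per treatment. Genes reaching 1 RPKM in 2 or more libraries were fitted with limma (trend, robust) on log2(RPKM + 1), and only the members' results are printed; for low genes, fold changes so computed are too small. The members and lists were chosen with earlier results of these data known. All 10 members are named; of the other ligand and receptor lists, tested genes with a mean of at least 1 RPKM; of the remaining lists, at most the 4 most abundant. Scarce or absent cell type markers and genes sharing a member's library order were named after their values were seen. Some genes of these lists are not reported here. Alternatives were a pseudocount of 0.1, no filter, a filter at 5 RPKM, median-of-ratios, T cell, macrophage and non-mitochondrial scaling, limma-voom on recovered reads (at least 10 reads in at least 2 libraries), a block for the replicate number, and omission of each library in turn, where a lone library takes its spread from the other treatment. The fits used limma 3.58.1 in R 4.3.3. Tables were handled with scipy 1.17.1, numpy 2.4.6 and pandas 2.3.3 in Python 3.11.15, and plots drawn with matplotlib 3.10.9.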

Additional observations from a re-analysis of the deposited data

How the results depend on the processing

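Of 91 values of single members under the alternatives, 77 kept their direction and their side of the threshold, and 9 changed sign. The other 5 came from fits with a lone IgG library, which takes its spread from the anti-SIGLEC15 pair. Scaling to the T cell identity genes turned Ccl3 to -0.31, Ccl2 to -0.32 and Ccl6 to -0.42, while that scaling moved the median of all genes to -0.56. Ccl9 lay at -0.0040 and changed sign to 0.016 when mitochondrial genes were left out of the total. With each library left out in turn, Ccl2 ran from -0.50 to 1.13, Ccl6 from -0.87 to 1.40, Ccl9 from -0.057 to 0.049 and Ccl5 from 0.44 to 2.51. The number of genes called by limma over the whole table ran from 0 to 2129 when a library was left out, and scaling to the macrophage and monocyte genes called 1 gene, the immunoglobulin segment Igkj4, named after its values were seen. The replicate block, with numbers that only name the pools (correlation of the deviations of same-numbered libraries 0.33), called 0 genes and left 303 at an unadjusted p under 0.05, against 146 without it. The number of members with both anti-SIGLEC15 libraries on top ran from 4 to 7 and the number with both at the bottom from 0 to 3 when a library was left out. It was 3 under median-of-ratios scaling, where Ccl3 dropped out, and 1 (Xcl1) when scaled to the macrophage and monocyte genes. The difference between the lymphocyte and myeloid classes ran from -0.42 to 1.66 with a library left out, was 0.21 with a pseudocount of 0.1 and 0.05 on recovered reads, against 0.62, and so depends on the treatment of the scarce genes; the cause of the other changes was not tested. The depth limits Ccl7 and Ccl8, with at most 9 reads in a library.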
